A study of Homo sapiens with 10 samples.

Results

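The genes described here are the olfactory receptor genes of human chromosome 11. They were chosen by name, as the protein-coding RefSeq genes of that chromosome whose symbol is OR followed by digits, letters and digits, and 171 genes met that rule. The rule uses symbols only, but it was chosen with earlier results of these data known. OR8U8, OR8U9 and OR9G9 are listed with coordinates on another sequence than the primary chromosome, and the other 168 receptors were placed. They stand among 1297 protein-coding genes of chromosome 11 and 19880 in the genome. The study used ChIP-seq, the sequencing of DNA that is precipitated with a chromatin protein, in HEK293T, a line of human embryonic kidney cells. Wild-type (WT) cells and cells with the microprotein EMBOW knocked out (KO) were precipitated with an antibody to WDR5, a WD40-repeat subunit of the complexes that methylate histone H3 lysine 4. HEK293T cells that stably express EMBOW-FH, a tagged form, were precipitated on anti-FLAG beads. Each of these 3 precipitations is 1 library from nuclei digested with micrococcal nuclease, so no difference below has a replicate check and no test between conditions was possible. The sources used here do not say whether the knockout or the tagged line is a single clone, or which promoter drives EMBOW-FH. The lists hold binding positions and no expression, so neither the cell type nor the knockout could be checked from them. The lists are called WT_WDR5, KO_WDR5 and EMBOW-F.

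Olfactory receptors are G protein-coupled receptors that bind odorants on sensory neurons of the nose. They form the largest mammalian gene family, sit in tandem clusters, and have their coding sequence in a single uninterrupted exon. Each olfactory neuron expresses one receptor allele and keeps the others in compact heterochromatin, and cells of other tissues keep nearly all of them silent. WDR5, in contrast, is known from the promoters of active genes, many of which lie in CpG islands. Receptors of families 51 to 56 are class I, the class shared with fish, and the remaining families are class II, which expanded in land vertebrates.

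Each list holds summits, which are single positions of highest signal in a peak, with the authors' −log10 q as score. The EMBOW-F list had 4740 summits on chromosome 11, WT_WDR5 had 866 and KO_WDR5 had 1041. A few EMBOW-F summits lie just upstream of a receptor, and the sequence there is printed below. RefSeq (GRCh38.p14) gave a promoter window, from 250 bases before to 50 bases after the annotated start, for 135 of the 168 receptors, and 5 of those windows held an EMBOW-F summit. The 250 bases before the start are printed for these 5 receptors, 5′ to 3′ on the coding strand, and the capitals mark the summit base with up to 10 bases on either side. The summit of OR4C11 lay 156 bases before its start (window chr11:55607646-55607895, minus strand), that of OR9G1 36 bases before (chr11:56698845-56699094, plus strand) and that of OR8D2 75 bases before (chr11:124320198-124320447, minus strand). For OR4X2 it lay 53 bases before the start (chr11:48244854-48245103, plus strand), and for OR8B12 247 bases before (chr11:124543655-124543904, minus strand). RPS3, a ribosomal protein gene of the small subunit that lies in one of the receptor megabases, had the highest WDR5 score among the non-receptor genes there, and its upstream bases are printed for contrast with every CG dinucleotide in capitals (chr11:75399268-75399517, plus strand). Its WDR5 summits lay outside the printed bases, 141 bp (WT_WDR5) and 120 bp (KO_WDR5) inside the gene from its 5′ end.
OR4C11: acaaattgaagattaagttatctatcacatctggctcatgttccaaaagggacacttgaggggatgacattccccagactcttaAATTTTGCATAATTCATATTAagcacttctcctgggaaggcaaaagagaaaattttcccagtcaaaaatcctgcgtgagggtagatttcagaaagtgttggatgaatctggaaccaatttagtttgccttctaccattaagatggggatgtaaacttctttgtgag
OR9G1: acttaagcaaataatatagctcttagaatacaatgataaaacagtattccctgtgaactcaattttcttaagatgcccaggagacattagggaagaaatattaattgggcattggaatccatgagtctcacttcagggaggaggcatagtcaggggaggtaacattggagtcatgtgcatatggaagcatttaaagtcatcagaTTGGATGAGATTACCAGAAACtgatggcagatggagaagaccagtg
OR8D2: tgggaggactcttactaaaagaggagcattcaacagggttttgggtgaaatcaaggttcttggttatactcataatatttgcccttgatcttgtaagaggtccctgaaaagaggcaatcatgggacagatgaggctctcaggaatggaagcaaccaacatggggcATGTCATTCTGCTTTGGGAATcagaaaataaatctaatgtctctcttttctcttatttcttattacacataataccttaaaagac
OR4X2: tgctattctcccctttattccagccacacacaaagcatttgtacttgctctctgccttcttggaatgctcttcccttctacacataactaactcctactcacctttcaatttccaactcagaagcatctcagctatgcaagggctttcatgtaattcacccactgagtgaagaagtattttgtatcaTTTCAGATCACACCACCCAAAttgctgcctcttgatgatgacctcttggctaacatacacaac
OR8B12: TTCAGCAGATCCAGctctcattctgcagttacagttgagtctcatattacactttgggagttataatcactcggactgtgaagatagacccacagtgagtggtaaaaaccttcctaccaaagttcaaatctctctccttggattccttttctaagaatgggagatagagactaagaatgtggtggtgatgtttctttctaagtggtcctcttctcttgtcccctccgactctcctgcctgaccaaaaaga
RPS3: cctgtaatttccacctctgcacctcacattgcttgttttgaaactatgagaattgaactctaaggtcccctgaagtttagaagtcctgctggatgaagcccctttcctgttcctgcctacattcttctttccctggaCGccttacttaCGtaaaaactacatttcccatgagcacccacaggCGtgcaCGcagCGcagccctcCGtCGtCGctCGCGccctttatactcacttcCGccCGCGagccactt
The −log10 q of these summits was 3.31 at OR4C11 and OR9G1, 3.25 at OR8D2, 2.70 at OR4X2 and 1.82 at OR8B12. OR4X2 had another EMBOW-F summit, inside its model, with a higher score of 3.24. The 300-base RPS3 window held 17 CG dinucleotides. The windows of OR4C11 and OR9G1 held 2 and 1, those of OR8D2 and OR4X2 held 0, and that of OR8B12 held 3.

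Tagged EMBOW lay near many receptors, and WDR5 near almost none. A gene was counted as marked when a summit lay within 1 kb of either end of its annotated model. EMBOW-F marked 57 of the 168 receptors, or 33.9% (exact Clopper-Pearson 95% interval 26.8 to 41.6%, which like all intervals here covers counting error only). The background was 1.4% of all protein-coding genes and 5.32% of those on chromosome 11, a count of 69 genes that includes these 57. WT_WDR5 marked 0 receptors, where the background was 50.3% of all genes and 43.6% of those on chromosome 11. KO_WDR5 marked 1 receptor, OR10S1, where the background was 53.8% and 46.3%. The median distance from a receptor end to the nearest summit was 2483 bp in EMBOW-F (range 4 to 588194 bp), 512085 bp in WT_WDR5 (12087 to 1528372 bp) and 324257 bp in KO_WDR5 (520 to 1769295 bp). Within 10 kb of an end, 117 receptors had an EMBOW-F summit, 0 had a WT_WDR5 summit and 2 had a KO_WDR5 summit. The backgrounds above are for 1 kb, and the share of other genes with a summit within 10 kb was not counted. Whether these 10-kb counts set the receptors apart was therefore not tested. Receptors on other chromosomes were marked by EMBOW-F less often, at 30 of 219 or 13.7% (interval 9.44 to 18.97%), and the intervals of the 2 shares did not meet. The surrounding EMBOW-F density differed as well. In megabases with receptors, more than 10 kb from short receptor models and pseudogenes, it was 78.2 per Mb on chromosome 11 and 20.2 elsewhere. The part that this density plays in the 2 shares was not tested.

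The other genes of these megabases were marked by WDR5 more often than by EMBOW-F. The 14 aligned 1-Mb bins of chromosome 11 that a receptor overlaps, called receptor megabases here, hold 112 other protein-coding genes. EMBOW-F marked 3 of these, or 2.68% (0.556 to 7.63%), WT_WDR5 marked 37, or 33.0% (24.4 to 42.6%), and KO_WDR5 marked 38, or 33.9% (25.2 to 43.5%). The narrower spans of the receptor clusters hold few non-receptor genes, too few to show whether that contrast holds there. EMBOW-F and WT_WDR5 each marked 10.0% of them (1.24 to 31.7%), and KO_WDR5 marked 15.0% (3.21 to 37.9%). The 3 EMBOW-F genes were TRIM51, a tripartite motif gene, with a summit 494 bp from its end, TCN1, a vitamin B12 binding protein of secretions, with one at 452 bp, and HBG2, a fetal globin, with one at 217 bp. Their −log10 q values were 3.25, 3.25 and 2.70. The genes with the highest WDR5 scores were RPS3, at 912 in WT_WDR5 and 780 in KO_WDR5, MSANTD2 at 50.8 and 42.4, and EIF3F, a translation initiation factor subunit, at 35.6 and 24.5. Receptor pseudogenes in these megabases, disabled copies of receptors, were marked by EMBOW-F in 62 of 177 cases, or 35.0% (28.0 to 42.5%), a share that overlaps that of the intact receptors. WT_WDR5 marked 0 and KO_WDR5 marked 2 of these pseudogenes.

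**Figure D1:**
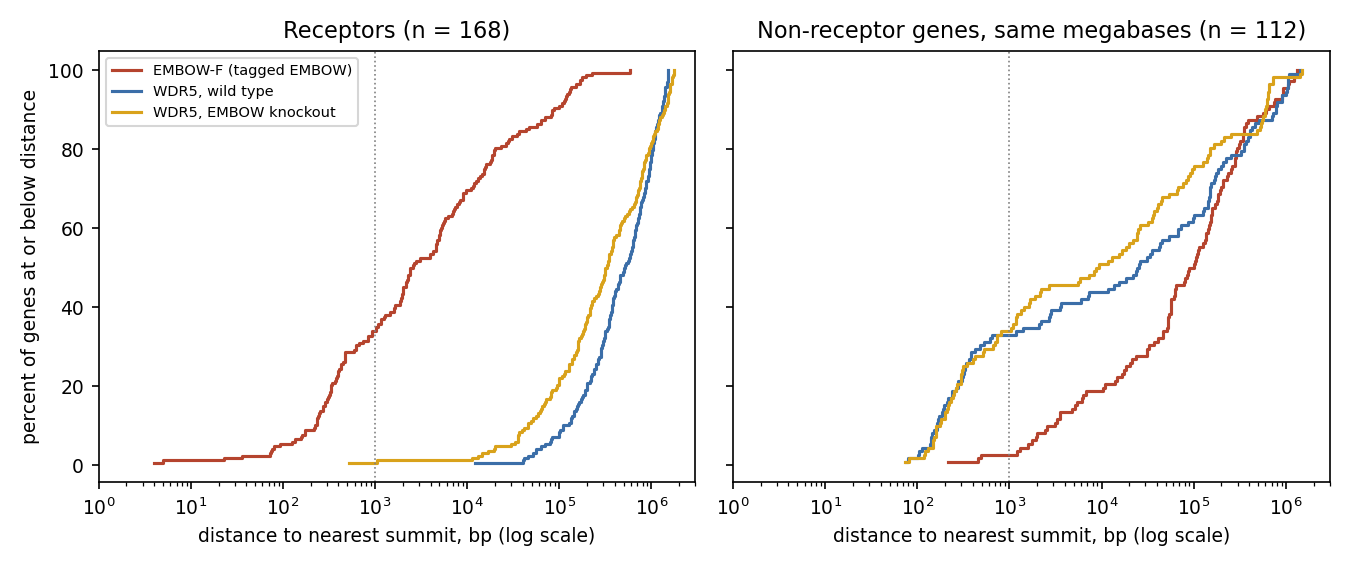
Percent of genes (vertical axis) whose nearest summit lies at or below a distance in bp (horizontal axis, log scale), for 168 receptors and 112 non-receptor genes of the same megabases, 1 line per list, with the 1-kb window dotted. At 1 kb the EMBOW-F line stands at 33.9% for receptors and 2.68% for their neighbours, while the WT_WDR5 line stands at 0 for receptors and 33.0% for their neighbours.

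The marked receptors carried summits of middling score. Across the 57, the best score within the window ran from 1.42 to 10.8 with a median of 3.31, and the median of the whole EMBOW-F list was 3.25. OR5J2 had the highest, a −log10 q of 10.8 at position 56175911, rank 807 of 93143 and 707 bp outside its 5′ end. Its nearest WT_WDR5 summit lay 1147316 bp away and its nearest KO_WDR5 summit 1147158 bp away. OR8H3 came next with 9.18 (rank 1345) at position 56122377, 4 bp inside its model, and it had no WDR5 summit within 1201403 bp in either genotype. The third was OR4A47 with 6.66 (rank 4649) at 48490718, which lies 996 bp past its 3′ end, and a second EMBOW-F summit lay 5 bp from the same model's end. The next were OR4A5 at 5.89, OR5D14 at 5.78, OR4C46 at 5.63 and OR4A16 at 5.61. OR8J3, OR4C6, OR4D5 and OR5T1 shared a score of 5.17, and OR5D16, OR4P4, OR10W1 and OR5B2 shared 4.51. OR5M10 had 4.20, and 10 receptors tied at 3.86 below it. All of these encode presumed odorant receptors, and 24 of these 26 receptors are class II. At 11 of the 57, an end summit had a q of at most 1e-05. That q was reached by 14.5% of the 76 summits at receptor ends and by 17.1% of the whole EMBOW-F list, so the count does not set the receptors apart.

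The other 31 marked receptors had scores from 1.42 to 3.31. In the cluster around 55 to 57 Mb, OR4C16, OR4C11 and OR9G1 had 3.31, OR4C15, OR4S2, OR5L1 and OR8U3 had 3.25, and OR5L2, OR5AS1, OR5T3 and OR8U1 had 2.70. OR4A15 at 2.27, OR5M8 at 2.26, OR8J1 at 2.18 and OR5D18 at 1.42 had the lowest scores there. Near 48 Mb, OR4X1 had 3.25, OR4X2 3.24 and OR4C5 2.70. Those near 58 Mb were OR1S2 at 3.25, OR10Q1 at 2.70 and OR5B3 at 2.52. Near 124 Mb they were OR10G6 at 3.31, OR8D1 and OR8D2 at 3.25, OR6T1 at 3.24, OR8G5 at 2.77, OR8B12 at 1.82 and OR10G9 at 1.47. Between 4 and 8 Mb, OR5P2 had 1.68, and OR51T1 and OR52B4 had 2.70 and 2.27. Many of these values recur, as they do in the whole list, where the 5 most frequent scores cover 44.0% of the summits. The 111 receptors without a mark had their nearest EMBOW-F summit 1025 to 588194 bp away, with a median of 8260 bp.

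Most marked receptors had a single summit in their windows. The 57 marked receptors held 76 distinct summits within their windows, and 0 of these served more than 1 receptor. A single summit was found at 41 receptors, a pair at 14, and 3 or more at OR4C6, which had 4, and OR5M10, which had 3. The best summit lay inside the gene model at 39 receptors and outside it at 18. Just inside the 1-kb window were OR5AS1 at 930 bp, OR8J1 at 919 bp and OR4D5 at 842 bp, and just outside it were OR10A3 at 1025 bp, OR5AK2 at 1032 bp and OR4S1 at 1080 bp.

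The 2 receptor classes differed in how often EMBOW-F marked them. It marked 4 of 55 class I receptors, or 7.27% (2.02 to 17.6%), and 53 of 113 class II receptors, or 46.9% (37.5 to 56.5%). The median distance to the nearest EMBOW-F summit was 13836 bp in class I and 1151 bp in class II. The class I receptors that were marked are OR52B4, at 2.27, OR51F1, at 3.86, OR51T1, at 2.70, and OR51B5, at 3.86. The model of OR51B5 spans 165335 bp, the longest of all the receptors, and its summit lay 834 bp outside it. All 55 class I receptors lie in 1 cluster, so class and genomic region cannot be told apart. Among subfamilies with 5 or more members on the chromosome, EMBOW-F marked 6 of 9 OR4C genes, 4 of 6 OR5M genes and 3 of 5 in each of OR5B and OR5D. It marked 2 of 5 OR10G genes, 1 of 5 in OR4D and in OR8B, and 0 of 5 in OR10A and in OR52E. Of the unmarked subfamilies, OR52E (class I) had its nearest EMBOW-F summits 2029 to 7173 bp away, and OR10A (class II) had them 1025 to 113396 bp away.

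The receptors fell into 11 clusters, runs of receptors with gaps of at most 500 kb, and the EMBOW-F density differed between them. The class I cluster from OR52B4 to OR52W1 (chr11:4367263-6200186) spans 1832.9 kb around the beta-globin genes and held 59 EMBOW-F summits, or 32.2 per Mb (exact Poisson 95% interval 24.5 to 41.5). The cluster from OR4A16 to OR5AK2 (chr11:55343201-56989843) has a similar span of 1646.6 kb with 46 receptors and held 337, or 204.7 per Mb (183.4 to 227.7). EMBOW-F marked 30 of those 46 receptors, which is 65.2% (49.8 to 78.6%), and the median spacing of the summits there was 3169 bp. Neither WDR5 list had a summit anywhere in that cluster. Near the centromere, OR4C46 and OR4A5 lay in a span with 295.7 summits per Mb (200.9 to 419.7), and both were marked. OR4C13 and OR4C12 lay in a span with 199.0 per Mb (73.0 to 433.2), and neither was marked. The cluster from OR4B1 to OR4A47 held 164.9 per Mb with 4 of 7 receptors marked, and that from OR9Q1 to OR5B21 held 130.1 per Mb with 6 of 13 marked. The cluster from OR6X1 to OR8A1 near the end of the long arm held 75.8 per Mb (58.1 to 97.2) with 10 of 22 marked. The 8 receptors from OR2AG2 to OR2D3 and the lone OR2AT4 had 0 EMBOW-F summits in their spans. The 8 receptors from OR5AN1 to OR10V1 were unmarked in all lists, at 47.9 EMBOW-F summits per Mb. Their span held 4 WT_WDR5 and 3 KO_WDR5 summits, the highest number of any cluster in both WDR5 lists. These WDR5 summits lay at the ends of the non-receptor genes OSBP and PATL1, apart from a WT_WDR5 summit 13721 bp from OSBP.

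**Figure D2:**
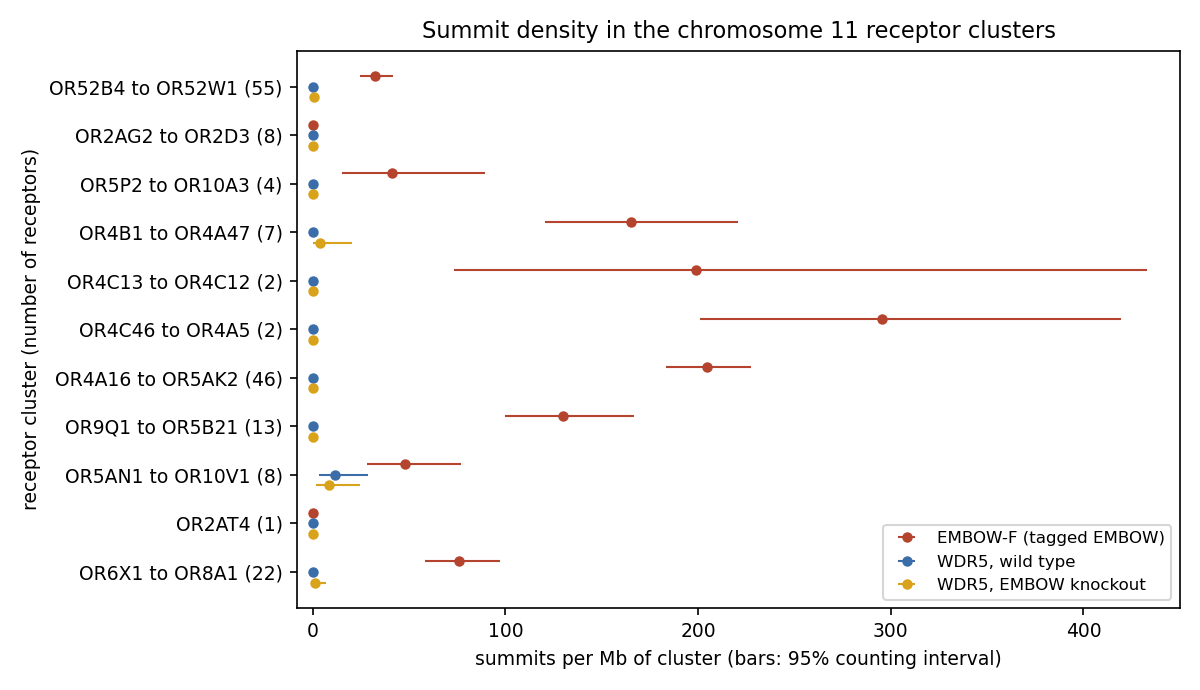
Summits per Mb (horizontal axis) in each of the 11 receptor clusters (vertical axis, number of receptors in brackets, in chromosome order), with exact Poisson 95% intervals for clusters with at least 1 summit. EMBOW-F density runs from 0 to 295.7 per Mb, and the highest WDR5 densities, 11.3 per Mb in WT_WDR5 and 8.45 in KO_WDR5, lie in the cluster from OR5AN1 to OR10V1. The WDR5 summits there lie at or near the non-receptor genes OSBP and PATL1.

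The density of the surroundings was also high in EMBOW-F. The receptor megabases held 73.6 EMBOW-F summits per Mb against 30.6 in the rest of chromosome 11, a ratio of 2.401 (exact conditional 95% interval 2.24 to 2.57). The megabases at 55 and 56 Mb, with 19 and 27 receptors, held 232 and 188 summits and ranked 1 and 2 on the chromosome. The median receptor megabase held 47 EMBOW-F summits, and the median of the other 122 megabases was 1.5. The 22 other megabases without a protein-coding gene start had a median of 98.5, and the 33 with more than 10 gene starts had a median of 0. The receptor megabases varied widely: those at 48 and 54 Mb, with 8 and 2 genes, held 135 and 130 summits, and those at 6 and 75 Mb, with 32 and 12 genes, held 1 and 0. At 4 and 5 Mb, with 30 and 42 genes, there were 20 and 41. The WDR5 lists went the other way, with ratios of 0.552 (0.409 to 0.732) in WT_WDR5 and 0.595 (0.457 to 0.762) in KO_WDR5.

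Inside the receptor megabases, sequence was divided into gene ends, gene bodies and the space between genes. EMBOW-F had 132.8 summits per Mb at receptor ends (104.7 to 166.3, 76 summits), 67.1 in receptor bodies beyond the ends (49.8 to 88.4, 50 summits) and 95.5 between genes (89.2 to 102.1, 855 summits). Ends of non-receptor genes had 7.61 per Mb (1.57 to 22.2, 3 summits) and their bodies 13.8. Pooled over the megabases, receptor ends were 17.5 times as dense as non-receptor ends (5.75 to 86.5) and 1.39 times as dense as the space between genes (1.08 to 1.76). The megabases differ in EMBOW-F density and in their mix of genes: those at 55 and 56 Mb held 46 receptors and 2 of the 112 other genes. With each megabase weighted by its own between-gene density, an alternative chosen after seeing the data, the first ratio was 7.51 (2.47 to 37.2) and the second 1.46 (1.15 to 1.82). Receptor ends then had 76 summits where the between-gene density would give 52.2, and non-receptor ends had 3 where it would give 15.5. The receptor ends were denser than the space between genes in 9 megabases and less dense in 4, and both were at 0 in 1. The unweighted ratio fell to 1.13 both with 2-kb windows and with cluster spans in place of megabases, was 1.24 (0.962 to 1.56) with bins of 500 kb and 1.77 (0.858 to 3.32) at a q of 1e-05 or less, and its interval included 1 in these 4 settings. WT_WDR5 had 0 summits at receptor ends and bodies, 98.9 per Mb at non-receptor ends (70.3 to 135.2, 39 summits) and 0.67 between genes (6 summits). KO_WDR5 had 1 summit at receptor ends, 0 in receptor bodies, 101.5 per Mb at non-receptor ends (72.5 to 138.2, 40 summits) and 1.23 between genes (11 summits).

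**Figure D3:**
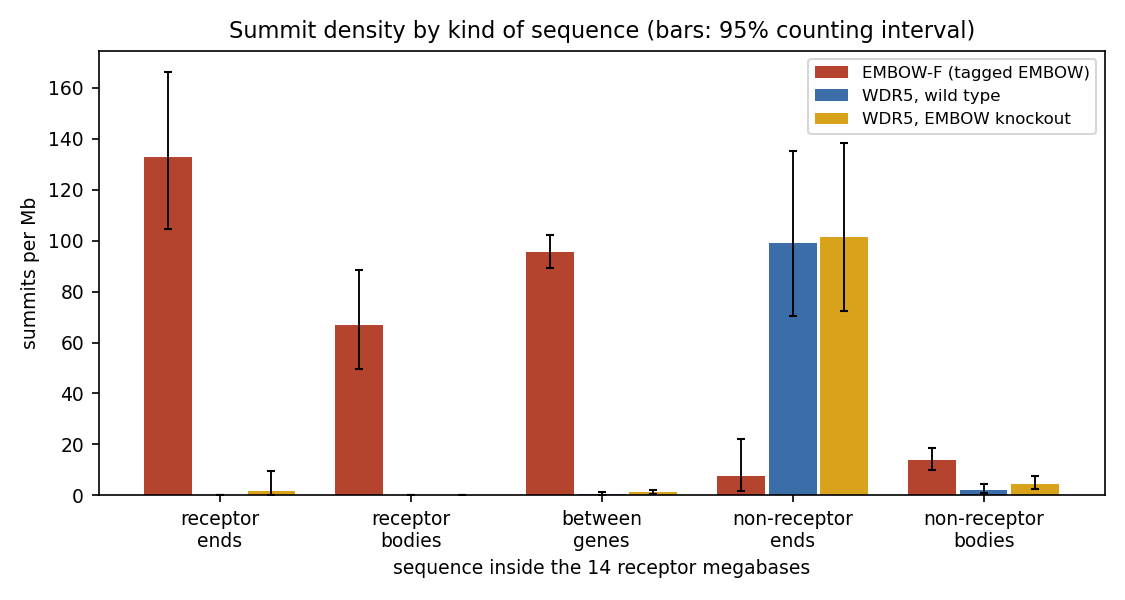
Summits per Mb of sequence (vertical axis) in 5 kinds of sequence inside the 14 receptor megabases, 1 bar per list, with exact Poisson 95% intervals where at least 1 summit was counted. EMBOW-F is dense at receptor ends and between genes (132.8 and 95.5 per Mb), and the WDR5 lists are dense at non-receptor ends (98.9 and 101.5 per Mb).

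Scores did not set receptor ends apart within EMBOW-F. The median −log10 q was 3.25 at receptor ends, between the genes of the receptor megabases and in the rest of chromosome 11. The share of summits with a q of at most 1e-05 was 14.5% at receptor ends (7.45 to 24.4%), 11.3% between genes and 11.2% in the rest of the chromosome.

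Along the receptors, EMBOW-F summits were counted by distance from the annotated start of the 135 receptors with a known strand. The first kilobase into the gene held 0.222 summits per receptor (0.150 to 0.317, 30 summits), and the kilobase before the start held 0.104 (14 summits). The other bins within 10 kb ran from 0.0296 (4 summits), from 2 to 1 kb before the start, to 0.156 (0.0963 to 0.238, 21 summits), from 9 to 10 kb past the start. The interval of this last bin overlaps that of the first kilobase. Of these receptors, 38 had a summit within 1 kb of the 5′ end and 35 within 1 kb of the 3′ end, with 28 counted at both, since many models are shorter than the window. The WDR5 lists had 0 summits within 1 kb of these starts. At the 84 non-receptor genes with a known strand, the first kilobase held 0.286 WT_WDR5 summits per gene (24 summits) and 0.333 KO_WDR5 summits (28 summits), and EMBOW-F had 0 there.

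**Figure D4:**
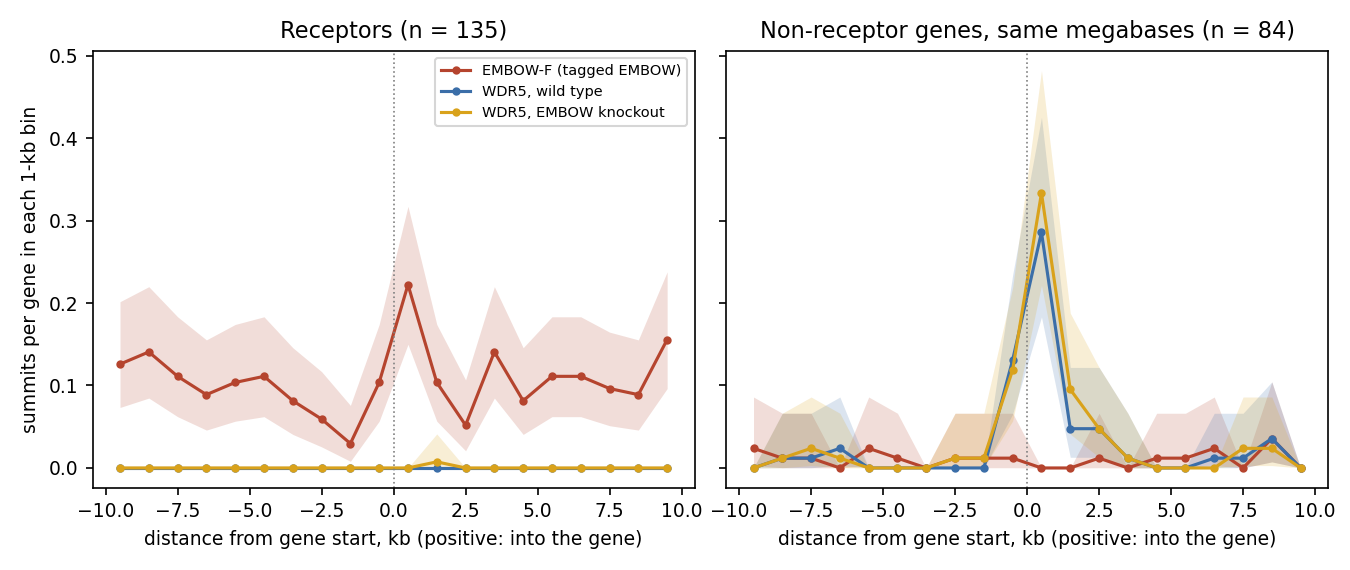
Summits per gene in 1-kb bins (vertical axis) by distance from the annotated gene start in kb (horizontal axis, positive into the gene), for 135 receptors and 84 non-receptor genes of the same megabases, with exact Poisson 95% bands where summits were counted. EMBOW-F reaches 0.222 per receptor in the first kilobase, and the WDR5 lists reach 0.286 and 0.333 per non-receptor gene in the same bin.

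A closer look at the receptor sequence itself was chosen after seeing the data. Of the 168 models, 74 are at most 1000 bp long, and 71 of these have a length that is a multiple of 3, as a bare coding sequence has. EMBOW-F summits lay inside 29 of these 74 short models, at 413.2 per Mb (276.7 to 593.4). That was 3.67 times the density more than 3 kb away from short models and short pseudogenes in the same megabases (2.46 to 5.27), which would have given 7.91 summits. Non-receptor genes with 1 kb on either side were left out of that sequence. Longer receptor models and pseudogenes were also left out, but the sequence beside them was kept. Receptor pseudogenes of at most 1500 bp held 37 summits, a ratio of 2.23 (1.57 to 3.08). The ratio was 0.928 (0.684 to 1.23) in the first kilobase outside, 0.782 (0.615 to 0.981) from 1 to 3 kb and 1.19 (1.05 to 1.35) from 3 to 10 kb. In the receptor megabases of other chromosomes the ratio was 2.16 for short models (0.792 to 4.70, 6 summits) and 2.45 for pseudogenes (1.37 to 4.04, 15 summits). At a q of 1e-05 or less, the short models of chromosome 11 held 4 summits, a ratio of 3.97 (1.08 to 10.2), and the pseudogenes held 4, a ratio of 2.02 (0.551 to 5.18) whose interval includes 1. Among short models with a known strand, 24 held a summit, 5 of them in the first 300 bp, 7 in the next 300 bp and 12 past 600 bp. OR1S2 and OR51T1 had theirs 74 and 78 bp from the start, and OR4A47 and OR4X2 at 925 and 889 bp. Neither WDR5 list had a summit in these short models or in the short pseudogenes of chromosome 11. Receptors are close copies of one another, and the part that this likeness plays in where summits were called was not tested.

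**Figure D5:**
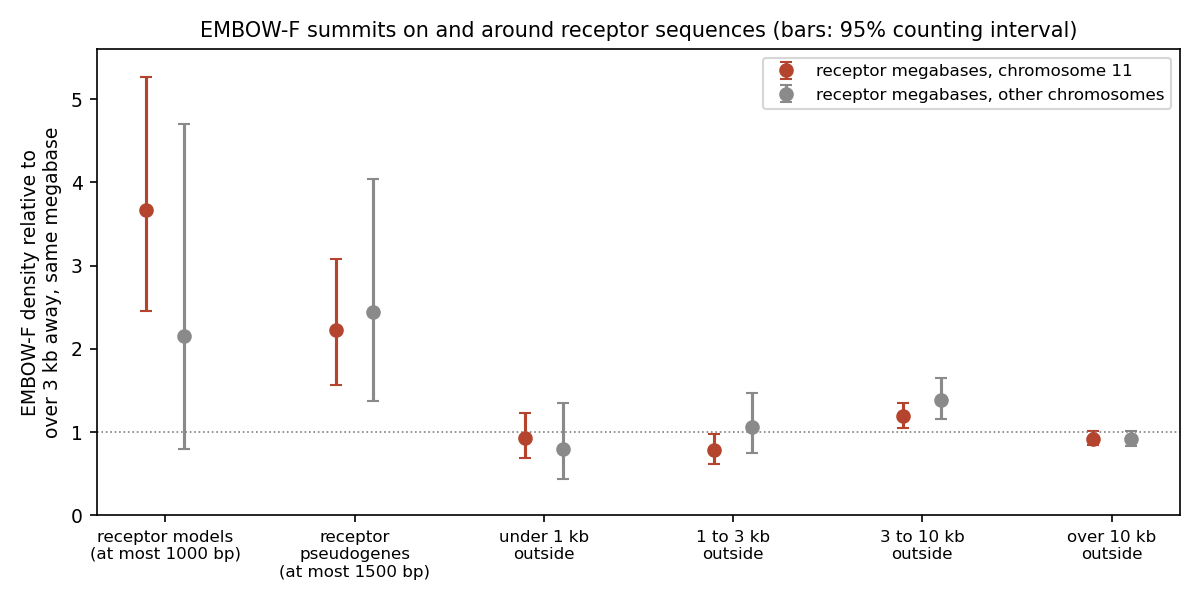
EMBOW-F summit density (vertical axis) in short receptor models, short receptor pseudogenes and 4 distances outside them (horizontal axis), for chromosome 11 and other chromosomes. Density is relative to sequence more than 3 kb away from these in the same megabases, with exact 95% intervals. On chromosome 11 the models stand at 3.67 and the pseudogenes at 2.23, and the first kilobase outside stands at 0.928.

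WDR5 came near the receptors in few places. OR10S1 (chr11:123976661-123977781), in the cluster near the end of the long arm, was the 1 receptor with a WDR5 summit in its window. Its KO_WDR5 summit lay at 123977181, 520 bp inside the model, with a −log10 q of 2.04 and rank 19828 of 21055. An EMBOW-F summit lay at 123976911, with a score of 3.86 and 270 bp from the KO_WDR5 summit, and the nearest WT_WDR5 summit to the gene was 235168 bp away. OR4A47 (chr11:48488793-48489722) had a KO_WDR5 summit at 48490778, 1056 bp past its end and just outside the window, with a score of 2.16 and rank 19205. That summit lay 60 bp from the EMBOW-F summit described above, and WT_WDR5 had none within 507620 bp of the gene. Both KO_WDR5 summits thus ranked near the bottom of their list. The authors' deposited table of new WDR5 targets dependent on EMBOW lists 867 transcript models on chromosome 11. It overlaps 2 of the 168 receptors, OR4A47 and OR10S1, and the share of all genes that it overlaps was not counted. OR6X1 lay 12087 bp from a WT_WDR5 summit and 11410 bp from a KO_WDR5 summit at ZNF202, a zinc finger gene. In KO_WDR5, OR52I1 and OR52I2 followed at 12946 and 14619 bp, and in WT_WDR5 the next were OR4D9 at 39974 bp, OR10V1 at 41750 bp, OR10A3 at 45772 bp and OR8A1 at 51769 bp.

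WDR5 and EMBOW-F summits seldom met, in the receptor megabases as elsewhere. Within 500 bp of an EMBOW-F summit lay 2.58% of all WT_WDR5 summits (0.577% on chromosome 11) and 2.33% of all KO_WDR5 summits (1.06% on chromosome 11). In the receptor megabases WT_WDR5 had 52 summits, 0 of them with such a partner. KO_WDR5 had 67, of which 3, or 4.48% (0.933 to 12.5%), had one. These are the summits at OR10S1 and OR4A47 and a summit 1641 bp from OOSP3, an oocyte-secreted protein gene, with a score of 2.86 and 111 bp from its partner. Of the WT_WDR5 summits 37, or 71.2%, had a KO_WDR5 summit within 500 bp, and 39 of the KO_WDR5 summits, or 58.2%, had one in WT_WDR5. Those shares lie near the background of 71.3% (74.0% on chromosome 11) for WT_WDR5 and 59.6% (61.5%) for KO_WDR5.

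The receptor promoters differed in base composition from those of their neighbours. In the RefSeq windows of 300 bases, the median GC content was 37.0% over the 135 receptors, 57.2% over 84 non-receptor genes of the same megabases and 62.7% over 15842 protein-coding genes. The median number of CG dinucleotides was 1, 12 and 22 in these groups. No CG at all was present in 36 receptor windows, and 10 or more were present in 1. The annotated start coincided with the start codon in 64 of the 135 windows, so these windows lie upstream of coding sequence and need not hold the site where transcription starts. The median GC content was 34.0% over the 45 receptors marked by EMBOW-F and 39.3% over the 90 others, and within class II it was 34.2% (42 receptors) and 38.8% (54). Short motifs were searched on both strands. The TATA box motif TATAAA was found in 35.6% of receptor windows, 16.7% of those of their neighbours and 9.8% of all. TAATTA, the core bound by many homeodomain factors, was found in 24.4%, 4.76% and 3.37%. The O/E site, which the EBF factors bind, was found in 1.48%, 3.57% and 1.41%. The first 2 motifs hold only A and T, and the receptor windows are poor in G and C, so these matches are a description of letters only.

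Genes that act with the receptors in olfactory neurons were also looked up, wherever they lie in the genome. Of 16 genes of olfactory signal transduction, EMBOW-F marked 0, WT_WDR5 5 and KO_WDR5 7. GNAL, the G protein subunit that couples to the receptors, ADCY3, the adenylyl cyclase it activates, GNB1, a G protein beta subunit, and RIC8B, a chaperone of that G protein, were marked in both WDR5 lists. SLC24A4, an exchanger that extrudes calcium, was marked in WT_WDR5 alone, and ANO2, a calcium-activated chloride channel, and PDE4A, a phosphodiesterase, were among those marked in KO_WDR5 alone. The channel genes CNGA2 and CNGA4 and the olfactory marker protein gene OMP were marked in none. Of 22 genes of receptor choice and transport, such as LHX2 and the EBF genes, which encode transcription factors of olfactory neurons, EMBOW-F marked 0, WT_WDR5 17 and KO_WDR5 18. These shares of WDR5-marked genes, 31.2 and 77.3% in WT_WDR5, lie on either side of the 50.3% background. Of the 5 beta-globin genes that lie among the class I receptors, EMBOW-F marked HBG2 and the WDR5 lists marked 0. Of 23 TRIM genes on chromosome 11, EMBOW-F marked 1, WT_WDR5 2 and KO_WDR5 4. Of 16 MS4A genes, a family of membrane proteins also clustered on chromosome 11, EMBOW-F marked MS4A6E and MS4A7, or 12.5%, and the WDR5 lists marked 0. The EMBOW-F background on the chromosome was 5.32%, but 57 of its 69 marked genes are the receptors, and the share without them was not computed. Over all protein-coding genes the EMBOW-F share was 1.4%, and the counts in these families are few genes. The WDR5 background on the chromosome was 43.6% in WT_WDR5 and 46.3% in KO_WDR5.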

How the data were processed

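The labels describe 10 samples, each the 1 library of its group, and the 3 lists used come from the WDR5 precipitations of WT and KO cells and from the FLAG precipitation. The submitters' processing notes name the build hg38 and, with no role stated, MACS2 2.2.7.1, Bowtie2 2.4.5 and deepTools 3.5.1. Settings, the input behind each list and the treatment of reads that align to several places are not given in the sources used here. Every interval in the deposited lists is 1 bp long, and its score was read as −log10 q, since the lowest value in each list lies just above that of a q of 0.05. The authors' EMBOW-F list names no sample and was matched to the FLAG precipitation, the only ChIP of tagged EMBOW in the labels. Read depth is unknown, and list length was not corrected for it.

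Genes came from RefSeq (GRCh38.p14), promoter sequences from a RefSeq table of the same build, where several windows existed the one at the gene's outer end. Shares have exact Clopper-Pearson intervals, densities exact Poisson intervals and ratios exact conditional binomial intervals. Summits are not independent of one another, so these intervals are narrow. The genes named were the 20 best-scoring receptors in EMBOW-F with ties, the 3 on either side of the window, the 5 nearest to each WDR5 list, and the best-scoring neighbours. One marked gene of the comparison lists is not reported here by name. The members and lists were chosen with earlier results of these data known. Alternatives were windows of 500 bp, 2 kb and 5 kb, a q of 1e-05, merged summits, cluster spans, bins of 500 kb and gene bodies. The steps were tested on simulated data, with scipy 1.17.1, pandas 2.3.3, numpy 2.4.6 and matplotlib 3.10.9 under Python 3.11.15.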

Additional observations from a re-analysis of the deposited data

How the results depend on the processing

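No paired analysis was possible because each group is 1 library. Across 103 alternative values of 22 results, 64 stayed near the reported value, 39 moved and 0 were recorded as a change of direction. Such a change could be recorded only for some density ratios, so for counts, shares and densities the 0 carries no information. The cause of a move was not tested except where the window or the number of summits sets it by construction. With a 500-bp window, KO_WDR5 marked 0 receptors, and the density at non-receptor ends was 165.7 per Mb in WT_WDR5 and 151.0 in KO_WDR5. With 2 kb, EMBOW-F marked 60.2% of class II receptors, KO_WDR5 marked 2 receptors, and those densities were 56.4 and 66.0. With 5 kb, EMBOW-F marked 98 receptors, 27.3% of class I, 73.5% of class II and 14.3% of non-receptor genes, and KO_WDR5 marked 2 receptors and 45.5% of non-receptor genes.

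At a q of 1e-05 or less, EMBOW-F marked 11 receptors, 0% of class I, 9.73% of class II and 0% of non-receptor genes, KO_WDR5 marked 0 receptors, and KO_WDR5 summits had 0 EMBOW-F partners. EMBOW-F density was then 19.2 per Mb at receptor ends and 10.8 between genes, a ratio of 1.77 (0.858 to 3.32). The ratio under 1 kb outside short receptor models and pseudogenes was 0.610. With cluster spans in place of megabases, non-receptor genes were marked in 10.0% (EMBOW-F), 10.0% (WT_WDR5) and 15.0% (KO_WDR5), shares of few genes with wide intervals. EMBOW-F density between genes was then 119.1 per Mb, and WDR5 density at non-receptor ends was 40.4 (WT) and 53.9 (KO). The ratios to the rest of the chromosome were 3.35, 0.102 and 0.128, and 1 KO_WDR5 summit had a partner. With bins of 500 kb, the density between genes was 107.6 and the EMBOW-F ratio 2.75. With gene bodies counted, EMBOW-F marked 18.2% of class I, 56.6% of class II and 11.6% of non-receptor genes, and KO_WDR5 43.8% of the latter.

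EMBOW-F marked a larger share of class II than of class I receptors, and of receptors than of their neighbours, under every window and threshold run. The intervals did not always part. At a q of 1e-05 or less, those of class I (0 to 6.49%) and class II (4.96 to 16.75%) overlapped. With cluster spans, that of the neighbours (1.24 to 31.7%) overlapped that of the receptors (26.8 to 41.6%). Depth is unknown, so a receptor without a summit is one where none was listed, and the lists differ in length.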
